A study of Homo sapiens with 6 samples.

Results

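The 10 genes described here are signals of bone formation and bone breakdown: RUNX2, SP7, ALPL, SPP1 and IBSP on the bone-forming side, and TNFSF11, TNFRSF11B, CSF1, IL11 and TGFB1 on the side that regulates osteoclasts, the cells that resorb bone. They were listed by symbol, and each was read from the 1 probe set that the platform annotation assigns to it, out of 18417 genes measured. The 6 arrays covered A673 and SK-N-MC, each an established human cell line of Ewing sarcoma (a cancer mostly of the bones of young people), transfected with siRNA against DKK2 (siDKK2), siRNA against ITM2A (siITM2A) or a non-silencing control siRNA. DKK2 encodes a secreted Wnt modulator of the Dickkopf family, and the series title links it to osteolysis. The labels give the ITM2A oligonucleotide a different number in SK-N-MC (1) than in A673 (7). Each combination was measured once, so between siRNAs the 2 lines served as the replicates and a difference inside 1 line has no test. Between lines the 3 siRNA arrays of each line took that place. They are not repeat cultures, so a p-value there measures no variation between cultures. It reflects how alike the 3 siRNAs were, with the spread of each gene moderated toward that of all genes.

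In bone, osteoblast precursors are committed by the transcription factor RUNX2 and then by SP7 (osterix), and the osteoblasts they become make alkaline phosphatase (ALPL) and the matrix phosphoproteins osteopontin (SPP1) and bone sialoprotein (IBSP). Osteoclasts form from myeloid precursors under M-CSF (CSF1) and RANKL (TNFSF11), and osteoprotegerin (TNFRSF11B) is the soluble decoy that captures RANKL. Bone metastases can start a cycle in which tumour signals such as IL-11 raise RANKL in osteoblasts, and resorbed matrix releases TGF-beta (TGFB1), which acts back on the tumour cells.

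Across genes, Pearson's r was 0.988 to 0.992 between arrays within a line and 0.938 to 0.947 between lines. The array medians over genes lay at 3.96 to 4.05 on the log2 scale. DKK2 stood at 7.73 with siDKK2, 9.13 with siITM2A and 8.64 with control in A673, and at 6.50, 7.94 and 8.01 in SK-N-MC, so 53.0% and 35.1% of the control level was left with its own siRNA (limma, adjusted p = 0.209). ITM2A stood at 9.21 with siDKK2, 5.03 with siITM2A and 8.52 with control in A673, and at 9.66, 6.10 and 9.48 in SK-N-MC, and fell with its own siRNA (-3.44 ± 0.17, adjusted p = 0.000442). Of 9 measured Ewing sarcoma markers 8 averaged at or above the median level of all genes, with CD99 at 9.79 to 10.73 and GLI1 below it. Markers of mature osteoblasts and osteocytes were dim, with 0 of 5 measured genes at the median level. Osteoclast markers reached it in 2 of 8 cases (NFATC1 and MMP9), and 1 of 4 measured blood cell markers did: CD68, a lysosomal protein of macrophages, lay at 4.06 to 6.41 and was higher in A673, while the pan-leukocyte marker PTPRC lay at 1.90 to 2.09.

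By level the list split into 4 genes that averaged at or above the median of all genes (4.04) and 6 that did not. Only ALPL of the 5 bone formation genes was among the 4, together with CSF1, IL11 and TGFB1 of the 5 osteoclast regulators. RUNX2, SP7, SPP1, IBSP, TNFSF11 and TNFRSF11B lay below the array's median on all 6 arrays, at 1.91 to 3.26. Background signal is not given beside these values, so whether these 6 were expressed cannot be told from the files. In a culture a lower level can mean fewer expressing cells or less RNA per cell, which arrays of bulk RNA do not separate.

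**Figure D1:**
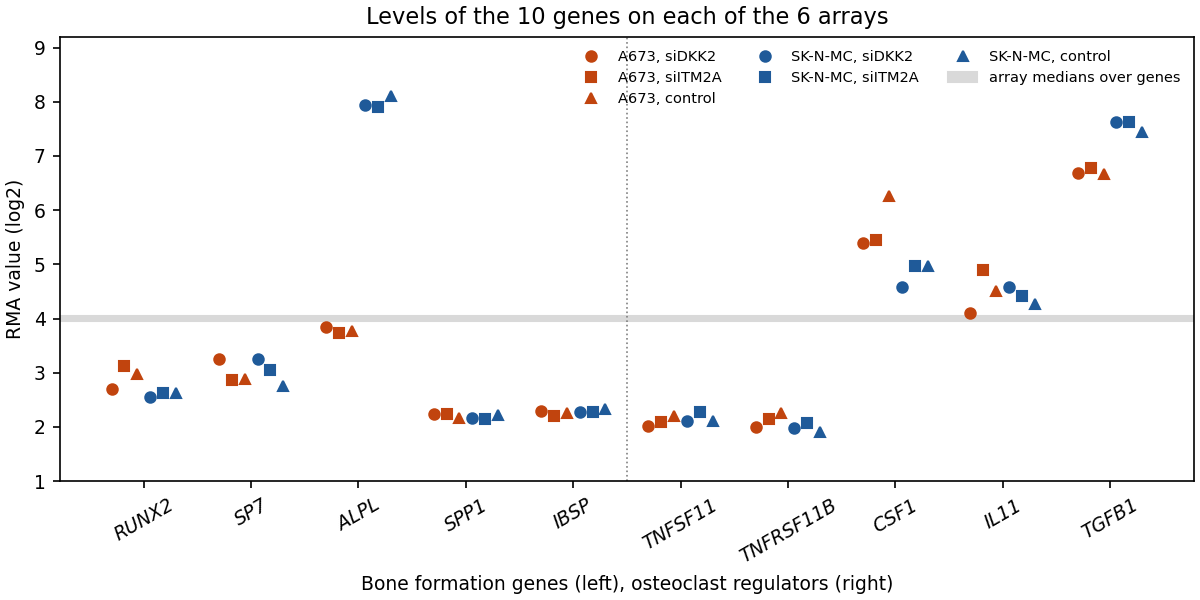
RMA values (log2) of the 10 genes, 1 point per array, coloured by line and shaped by siRNA, with the array medians over all genes as a grey band. ALPL separates the lines, at 3.73 to 3.84 in A673 and 7.91 to 8.11 in SK-N-MC, while 6 genes lie below the band on all arrays.

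ALPL, the ectoenzyme that frees phosphate for mineral and a standard marker of early osteoblasts, was the gene of the list that differed most between the lines. In A673 it stood at 3.84 with siDKK2, 3.73 with siITM2A and 3.77 with control. In SK-N-MC the values were 7.94, 7.91 and 8.11. The ranges of the lines were far apart, and within a line the 3 siRNAs lay within 0.20 of each other. ALPL was 18.4-fold lower in A673 than in SK-N-MC (log2 difference -4.20 ± 0.11, SE, n = 3 arrays per line, each with a different siRNA, limma, adjusted p = 1.97e-07). All 3 A673 values were below their array medians, so the fold rests on dim A673 values.

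TGFB1, a ligand stored in bone matrix, was above the median everywhere. It stood at 6.68 with siDKK2, 6.77 with siITM2A and 6.66 with control in A673. The SK-N-MC values were 7.63, 7.63 and 7.45, all above those of A673. TGFB1 was 1.82-fold lower in A673 (-0.86 ± 0.10, adjusted p = 0.000362).

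CSF1, the cytokine on which macrophage and osteoclast precursors depend, ran the other way. It stood at 5.40 with siDKK2, 5.44 with siITM2A and 6.26 with control in A673, and at 4.58, 4.97 and 4.97 in SK-N-MC. The lowest A673 value lay above the highest SK-N-MC value. CSF1 was 1.82-fold higher in A673 (0.86 ± 0.15, adjusted p = 0.0032), and the gap was uneven across siRNAs: 0.82 with siDKK2, 0.47 with siITM2A and 1.29 with control.

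These 3 were the members called between the lines, 1 higher and 2 lower in A673, against 28.5% of all genes called there. By size, ALPL alone was 2-fold or more apart, with 1 sign, under all 3 siRNAs, a mark that 5.22% of genes reached. RUNX2, the master regulator of the osteoblast lineage, came next at 0.33 ± 0.11 and missed the threshold (adjusted p = 0.063). Its A673 values were 2.70 with siDKK2, 3.12 with siITM2A and 2.97 with control, and its SK-N-MC values were 2.55, 2.63 and 2.62, all below the array medians. IL11 was at 4.11, 4.90 and 4.50 in A673 and at 4.57, 4.41 and 4.28 in SK-N-MC. The lines overlapped for IL11 (0.08 ± 0.17, adjusted p = 0.805), and the 3 A673 values spread more widely (SD 0.39) than the 3 of SK-N-MC (SD 0.15). The other 5 genes had fitted line differences of -0.06 to 0.14.

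**Figure D2:**
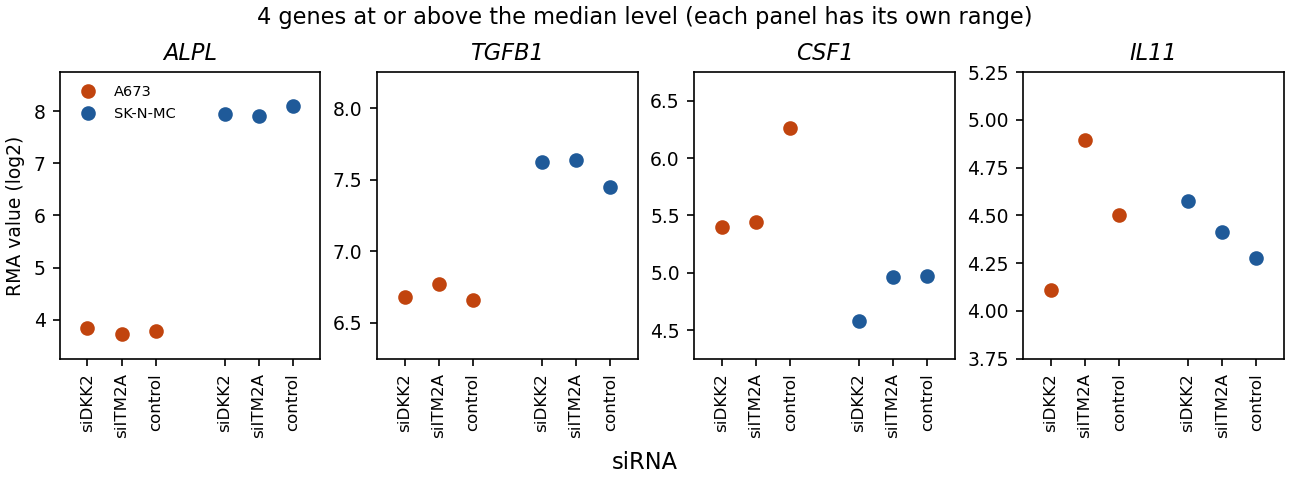
RMA values (log2) of the 4 genes at or above the median level, 1 point per array, with A673 left of SK-N-MC and the siRNA on the x axis; each panel has its own range. ALPL and TGFB1 are lower on every A673 array, and the A673 control array has the highest CSF1 value, 6.26.

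Of the 10 symbols 7 were matched to a promoter window in RefSeq (GRCh38.p14), which runs from 250 bases before to 50 bases from the transcript start. The windows of the 2 genes that were lower in A673 are shown because their levels were set apart by line and not by siRNA. Capitals mark the GC box (GGGCGG) and the TATA motif (TATAAA) on either strand. ALPL has 3 windows there, and the 1 with these motifs is given (chr1:21509173-21509472, plus strand, 82.3% G and C).
ALPL: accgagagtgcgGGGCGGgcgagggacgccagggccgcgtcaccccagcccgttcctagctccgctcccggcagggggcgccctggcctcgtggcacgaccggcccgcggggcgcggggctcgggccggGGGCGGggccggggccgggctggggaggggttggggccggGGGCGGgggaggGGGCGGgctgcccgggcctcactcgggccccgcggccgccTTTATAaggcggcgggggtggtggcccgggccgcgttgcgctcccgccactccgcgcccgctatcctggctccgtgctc
The TGFB1 window lies at chr19:41353873-41354172 on the minus strand, with 77.3% G and C.
TGFB1: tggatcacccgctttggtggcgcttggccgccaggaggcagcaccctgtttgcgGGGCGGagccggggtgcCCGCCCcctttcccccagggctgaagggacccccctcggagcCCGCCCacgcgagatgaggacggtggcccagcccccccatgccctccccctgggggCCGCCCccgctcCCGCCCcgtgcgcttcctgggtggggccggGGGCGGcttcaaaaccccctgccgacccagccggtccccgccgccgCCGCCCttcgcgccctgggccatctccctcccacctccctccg
The ALPL window holds 4 GC boxes and 1 TATA motif, and the TGFB1 window 7 GC boxes and 0 TATA motifs. None of these matches overlap. Of 35116 windows of this length 45% hold a GC box and 11.5% a TATA motif. The core RUNX motif TGTGGT, present in 13.1% of windows, and a pair of GGAA repeats (GGAAGGAA, 3.67%), the kind of sequence that Ewing fusion proteins bind, were also searched on both strands. Neither is in these windows or in the other ALPL windows. The window of IL11, another member, holds 1 GGAAGGAA match, at base 69 and read on the opposite strand, and 0 RUNX motifs. IL11 was not called between the lines or the siRNAs. Windows of the other matched members are not described here, so the share of the list with such a match is not given. A match describes the letters only, and binding was not measured.

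With siDKK2 against control, 0 of the 10 genes passed the threshold of the fit across all genes, where 0.0109% of genes did (limma). CSF1 and SP7 were the 2 members at an unadjusted p under 0.05, beside 8.68% of all genes. Leaving out the siDKK2 array of SK-N-MC gave 60 calls and leaving out its control array 45, again with 0 members among them. By size, 0 of 10 were past 1.5-fold with 1 sign shared by the lines, as 0.478% of genes were. The 10 had a median difference of -0.08 within A673 and -0.02 within SK-N-MC, beside -0.04 and -0.01 over all genes.

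On the bone-forming side SP7 had the widest siDKK2 difference. It stood at 3.25 with siDKK2 and 2.89 with control in A673, and at 3.26 with siDKK2 and 2.75 with control in SK-N-MC. The siDKK2 value was the highest in each line, with siITM2A at 2.87 and 3.06. The fitted difference was 0.43 ± 0.14 (95% interval 0.12 to 0.75; adjusted p = 0.449), at a level below the array medians throughout. The RUNX2 differences were -0.27 (A673) and -0.06 (SK-N-MC) (fitted -0.17 ± 0.14, interval -0.48 to 0.15). ALPL differed by 0.06 and -0.17 (fitted -0.05 ± 0.13, interval -0.35 to 0.25). The matrix genes SPP1 and IBSP were nearly flat: SPP1 ran from 2.15 to 2.25 over the 6 arrays and IBSP from 2.20 to 2.33, and 0.38% and 1.31% of genes had a narrower range.

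Among the osteoclast regulators CSF1 stood at 5.40 with siDKK2 and 6.26 with control in A673, and at 4.58 with siDKK2 and 4.97 with control in SK-N-MC. It had its lowest value of each line with siDKK2, 1.82-fold and 1.31-fold under the control siRNA. The fitted difference was -0.63 ± 0.19 (interval -1.06 to -0.20) and missed the threshold over all genes (adjusted p = 0.427). Leaving out the SK-N-MC control array gave -0.95 and leaving out the A673 control array gave -0.31, while leaving out either siDKK2 array gave -0.66 (SK-N-MC) or -0.60 (A673). In A673 alone CSF1 was the 1 member past 1.5-fold, where 5.03% of genes were, and in SK-N-MC alone 0 members were, where 2.89% of genes were.

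On the same arrays interferon-response genes were low with siDKK2, though limma called 0 of 13 (all 13 had an unadjusted p under 0.05). Over 13 measured members of that marker list the median was 4.22 with siDKK2, 5.96 with siITM2A and 6.76 with control in A673, and 3.15, 4.58 and 4.69 in SK-N-MC. Of the 13, 12 were lower with siDKK2 than with control in both lines, and 12 were also lower with siITM2A than with the same control arrays. Of all 18417 genes 5820 were lower in both lines with siDKK2 and 5646 with siITM2A. The part of the interferon-response difference in the CSF1 values was not tested.

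RANKL and its decoy gave no shift that stood above the spread. TNFSF11 was at 2.02 with siDKK2, 2.09 with siITM2A and 2.20 with control in A673, and at 2.11, 2.27 and 2.11 in SK-N-MC. TNFRSF11B was at 1.995, 2.14 and 2.26 in A673 and at 1.99, 2.07 and 1.91 in SK-N-MC. The siDKK2 differences were -0.09 ± 0.13 for TNFSF11 (interval -0.40 to 0.22) and -0.10 ± 0.14 for TNFRSF11B (interval -0.42 to 0.22). For IL11, a gp130 cytokine that promotes osteoclast formation, the lines pointed in opposite directions, A673 at -0.39 and SK-N-MC at 0.30. TGFB1 differed by 0.02 and 0.18 (fitted 0.10 ± 0.13, interval -0.19 to 0.39).

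**Figure D3:**
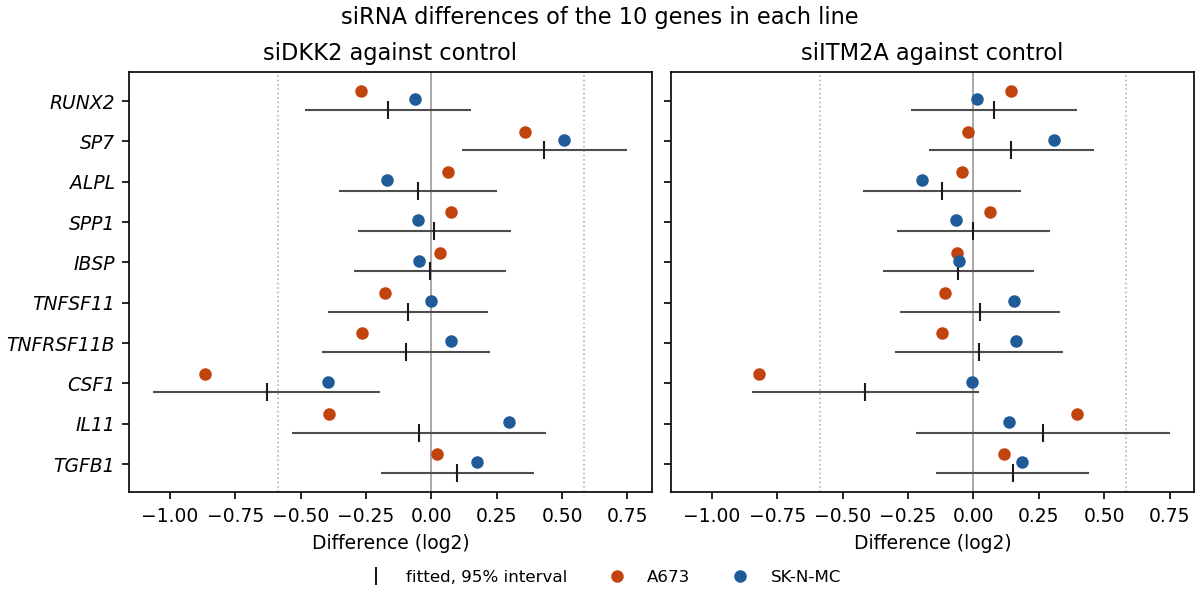
Differences (log2) of the 10 genes from the control siRNA with siDKK2 (left) and siITM2A (right). Coloured points are the 2 lines, black ticks and bars the fitted difference and its 95% interval, and dotted lines a 1.5-fold change; CSF1 in A673 lies past 1.5-fold with both siRNAs, at -0.87 and -0.82.

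With siITM2A against control, 0 of 10 genes passed, beside 0.0109% of all genes (limma, 0 members at an unadjusted p under 0.05), and 0 differed 1.5-fold in both lines, beside 0.255%. This comparison uses the same control arrays as siDKK2. CSF1 again had the widest fitted difference, -0.41 ± 0.19 (interval -0.85 to 0.02; adjusted p = 0.745), with A673 at -0.82 and SK-N-MC at -0.01. It was past 1.5-fold in A673 alone, where 3.28% of genes were, and 0 members were in SK-N-MC alone, beside 2.87% of genes. The IL11 differences were 0.40 (A673) and 0.14 (SK-N-MC) (fitted 0.27 ± 0.21) and TGFB1 by 0.12 and 0.19 (0.15 ± 0.13). SP7 differed by -0.02 and 0.31 (0.14 ± 0.14), and ALPL by -0.04 and -0.20 (-0.12 ± 0.13). The other 5 had fitted differences between -0.06 and 0.08.

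Set directly against each other, the knock-downs do not draw on the control values for the difference itself. Again 0 of 10 genes were called, beside 0.0163% of all genes (limma, 0 members at an unadjusted p under 0.05), and 0 of 10 differed 1.5-fold in both lines, beside 0.489%. In A673 the CSF1 values of 5.40 with siDKK2 and 5.44 with siITM2A were nearly equal, and in SK-N-MC they were 4.58 and 4.97 (fitted -0.22 ± 0.19, adjusted p = 0.824). The IL11 difference was -0.79 for A673, against 0.16 for SK-N-MC (-0.31 ± 0.21, adjusted p = 0.76). Of the 5 bone formation genes 4 were higher with siDKK2 than with siITM2A in both lines and RUNX2 was lower in both. Of the 5 osteoclast regulators 4 were lower in both lines and IL11 was mixed. Over all 18417 genes 5051 were higher and 5070 lower in both lines. Leaving out 1 array could reverse the fitted sign of ALPL, SPP1, CSF1 and TGFB1, so no contrast between the 2 sides is drawn from these signs. Most of the member differences were small, with fitted medians of 0.05 and -0.12 for the 2 sides beside 0.00 over all genes.

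The wider pathways were read from 4 lists of genes that were no members. Osteoblast genes split between the lines: of 27 measured, 7 were higher and 6 lower in A673 at the threshold, where 13.8% of all genes were higher and 14.7% lower, with a median difference of 0.05 beside -0.02 over all genes. DLX5, a homeobox gene of early osteoblasts, was 20.7-fold higher in A673 (4.37 ± 0.10, adjusted p = 1.97e-07). The opposite held for the bone morphogen BMP2, 6.49-fold lower (-2.70 ± 0.12, adjusted p = 1.64e-06), for the collagen gene COL1A2 (-1.49 ± 0.12) and for TWIST1 (-1.36 ± 0.10), a basic helix-loop-helix factor that restrains RUNX2. Collagen genes did not share a direction: COL1A1 of the same list was called higher in A673 (0.94 ± 0.22), as was SPARC (1.08 ± 0.10). DLX5 lay below the array median on every SK-N-MC array, and BMP2 did so on every A673 array. As for ALPL, their folds rest on dim values in the lower line. A673 thus had more DLX5 and less ALPL and BMP2 than SK-N-MC.

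Osteoclast signal genes, a list that holds agonists and restraints of osteoclasts, were higher in A673 in 11 of 25 measured cases and lower in 0 (median 0.48), beside the same 13.8% and 14.7% of all genes. The list median of the line difference was uneven across siRNAs: 0.18 with siDKK2, 0.14 with siITM2A and 0.62 with control. Of the 25 genes 9 averaged at or above the median level of all genes. IL1A, an interleukin-1 that stimulates resorption, was 42.6-fold higher (5.41 ± 0.15, adjusted p = 1.98e-07). Its values were 6.77 with siDKK2, 7.86 with siITM2A and 7.60 with control in A673, and 1.76, 2.08 and 2.15 in SK-N-MC. The chemokine genes CCL2 (4.04 ± 0.27) and CXCL8 (3.71 ± 0.26), which recruit myeloid cells, and SEMA3A (4.63 ± 0.14), which protects bone, were higher as well. IL1A, CCL2, CXCL8 and SEMA3A lay below the array median on every SK-N-MC array, so their differences rest on dim SK-N-MC values. JAG1, a Notch ligand, was 2.32-fold higher (1.21 ± 0.11), and IL34, an alternative ligand of the M-CSF receptor, 1.45-fold (0.54 ± 0.11). IL6 lay at 2.07 to 3.26, highest on the A673 control array, and the Wnt antagonist gene DKK1 at 2.12 to 2.33 over the 6 arrays, and neither was called between the lines (0.48 ± 0.20 and 0.09 ± 0.10).

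Around the TGF-beta and IL-11 ligands, some receptor genes differed between the lines too, in both directions. Of 20 measured TGF-beta genes 3 were higher and 5 lower in A673 (median 0.00; 13.8% and 14.7% of all genes). The receptor gene TGFBR2 was 7.07-fold higher in A673 (2.82 ± 0.12, adjusted p = 1.46e-06), and TGFB3, the sister ligand of TGFB1, was 1.97-fold lower (-0.98 ± 0.13). The receptor genes TGFBR1 (0.01 ± 0.13) and TGFBR3 (-0.09 ± 0.18) were not called. FURIN, the protease that matures the TGF-beta precursor, was higher (0.81 ± 0.11) and SMAD2, a signal carrier of the pathway, lower (-0.55 ± 0.10). Of 12 measured IL-11 and gp130 genes 3 were higher and 2 lower (median 0.24), against those same shares. OSMR, the oncostatin M receptor, was 10.3-fold higher (3.36 ± 0.13, adjusted p = 6.54e-07) and IL6ST, the gp130 chain that IL-11 signals through, 2.80-fold (1.49 ± 0.16). IL11RA, the gene of the IL-11 receptor itself, was lower in A673 (-0.98 ± 0.14). STAT3, the factor downstream of gp130, was lower as well (-0.56 ± 0.11), and LIFR (0.26 ± 0.11) was not called. TGFBR2 and OSMR lay below the array median on every SK-N-MC array, so their folds rest on dim SK-N-MC values.

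**Figure D4:**
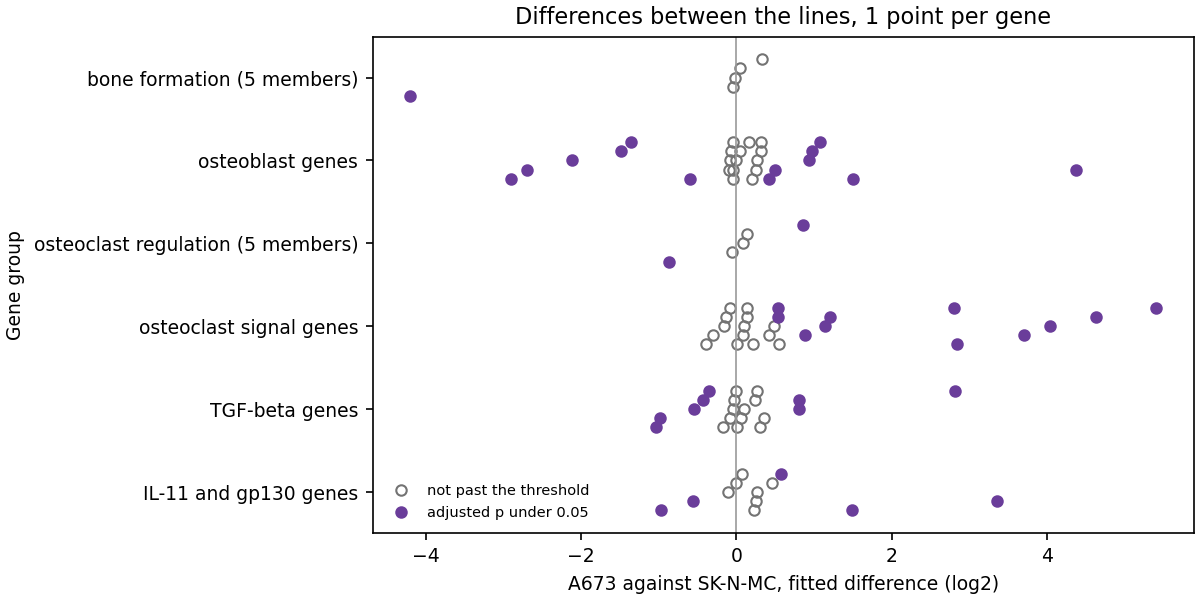
Fitted differences (log2) of A673 against SK-N-MC, 1 point per gene, for the 2 sides of the 10 genes and the 4 wider lists; filled points have an adjusted p under 0.05. ALPL is the far left point at -4.20 and IL1A the far right one at 5.41, and no filled osteoclast signal gene lies below 0.

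With the siRNAs, 0 genes of the 4 lists passed in any of the 3 comparisons (limma). With siDKK2 against control 3 of 27 osteoblast, 5 of 25 osteoclast signal, 3 of 20 TGF-beta and 2 of 12 IL-11 and gp130 genes had an unadjusted p under 0.05, as did 8.68% of all genes, and the list medians were -0.04, -0.09, -0.10 and -0.10 beside -0.02 over all genes. SMAD1, which relays bone morphogenetic protein signals, stood at 4.40 with siDKK2, 5.38 with siITM2A and 5.28 with control in A673, and at 4.43, 5.40 and 5.37 in SK-N-MC. The siDKK2 arrays were the lowest in both lines by a similar margin (-0.91 ± 0.13, adjusted p = 0.209). BMPR2, a receptor for the same ligands, stood at 5.33, 5.88 and 6.26 in A673 and at 5.21, 5.67 and 5.99 on the SK-N-MC arrays (siDKK2 against control -0.86 ± 0.13, adjusted p = 0.209). These were the 2 list genes past 1.5-fold in both lines with siDKK2. Further genes named by the same rule were IL1A (-0.61 ± 0.18), IL34 (0.38 ± 0.13), TGIF1 (-0.34 ± 0.13), TGFB3 (0.25 ± 0.16), OSMR (-0.60 ± 0.15) and IL6ST (-0.51 ± 0.20), with adjusted p-values of 0.353 to 0.706.

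With siITM2A against control the counts at an unadjusted p under 0.05 were 3 of 27, 5 of 25, 0 of 20 and 0 of 12, beside 6.91% of all genes, and the medians were 0.04, 0.02, 0.01 and 0.00 beside -0.03 over all genes. ENPP1, which makes the mineralization inhibitor pyrophosphate, was the 1 list gene past 1.5-fold in both lines. It stood at 6.79 with siDKK2, 7.98 with siITM2A and 7.37 with control in A673, and at 5.93, 6.16 and 5.53 in SK-N-MC (siITM2A against control 0.62 ± 0.23, adjusted p = 0.707). The JAG1 differences were 0.53 (A673) and 0.54 (SK-N-MC), and in that order IL34 differed by 0.29 and 0.50, and BMPR2 by -0.38 and -0.32. LTBP3, which binds latent TGF-beta, differed by 0.16 and 0.24, SMAD6 by 0.18 and 0.19, STAT3 by -0.39 and -0.15, and LIFR by 0.21 and 0.12.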

How the data were processed

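RNA from the 6 cultures was amplified with an Affymetrix whole-transcript kit and labelled with biotin, per the labels' protocols. The deposited values are RMA summaries from Affymetrix Expression Console, per the submitters' processing notes, read here as log2 from their range of 1.02 to 13.4. The software version and genome build were not given in the sources used here. RMA compresses dim differences, so folds near the floor are understated. Of 33297 probe sets 19460 had 1 symbol, 1754 several and 12083 none listed; 19429 Entrez numbers matched the RefSeq gene table. The probe set with the highest mean was kept per gene, which left 18417; each of the 10 members had 1 probe set.

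Fits used limma 3.58.1 in R 4.3.3 (lmFit, eBayes) on every gene and the 6 arrays together, in an additive model of siRNA plus line, with 2 residual degrees of freedom and a prior of 6.28. The line pairs the arrays, per the labels. The Benjamini-Hochberg adjustment ran over all 18417 genes, with a threshold of 0.05. The labels name no repeat cultures, so a p-value measures no variation between cultures. It reflects how alike the 2 lines (or, between lines, the 3 siRNAs) were. The spread of each gene was moderated toward that of all genes, so an SE is not the gene's own spread alone. The fit was also run on simulated data in which siRNA differences were equal in both lines. Responses that differ between the lines were not simulated, so that run is not used as support here. Members, lists and tests were chosen with earlier results of these data known. List genes were named by rule, among genes at or above the median level of 4.04: per list the 4 with the largest smallest-of-the-siRNAs line difference and, for each siRNA, the 2 whose weaker difference of the lines was largest, signs being equal; DKK2, ITM2A, IL6, JAG1 and DKK1 were added. Marker genes and other genes outside the rule were named after their values were seen. Alternatives were the fit without the line term, an intensity trend, a level filter, quantile normalization, averaged probe sets, the arrays of 2 groups alone, other folds and each array left out. Genes of the lists with no single-symbol probe set were not analysed here.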

Additional observations from a re-analysis of the deposited data

Results flagged for a closer look

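Some siRNA differences had opposite signs in A673 and SK-N-MC. Each rests on 1 array per line and siRNA, so the difference between the lines was not tested, and 45% of all genes with siDKK2, 47.9% with siITM2A and 44.6% between the siRNAs had opposite signs too. The widest was IL11, where siDKK2 minus siITM2A was -0.79 (A673) and 0.16 (SK-N-MC), a gap of -0.95, and siDKK2 minus control was -0.39 and 0.30, a gap of -0.69. With siDKK2 against control the gaps (A673 minus SK-N-MC) were 0.23 for ALPL, 0.13 for SPP1, 0.081 for IBSP, -0.18 for TNFSF11 and -0.34 for TNFRSF11B. With siITM2A against control they were -0.33 for SP7, 0.13 for SPP1, -0.26 for TNFSF11 and -0.28 for TNFRSF11B. All but ALPL and IL11 are genes below the array medians on every array, and ALPL was below them in A673.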

How the results depend on the processing

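ALPL, TGFB1 and CSF1 kept their calls and directions between the lines under each of their 11 alternatives, with left-out arrays giving -4.26 to -4.14, -0.90 to -0.83 and 0.65 to 1.05. With the siRNAs, 0 members were called under any alternative run (limma). At a fold below 1.5, 2 members passed with siDKK2 against control (SP7 and CSF1). At 1.5-fold 2 passed between the lines (ALPL and TGFB1). The share of all genes past these looser cuts was not taken, so whether the counts exceed it was not tested. The members whose values changed sign in the comparisons below were uncalled, and the cause was not tested. Quantile normalization gave 0.017 for ALPL and 0.0065 for IBSP with siDKK2 against control and 0.022 for SPP1 with siITM2A against control.

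Leaving out 1 array at a time gave these ranges where the sign changed. For siDKK2 against control they were -0.15 to 0.045 (ALPL), -0.053 to 0.076 (SPP1), -0.048 to 0.037 (IBSP), -0.20 to 0.021 (TNFSF11), -0.25 to 0.060 (TNFRSF11B) and -0.46 to 0.36 (IL11). For siITM2A against control they were -0.0385 to 0.20 (RUNX2), -0.066 to 0.063 (SPP1), -0.087 to 0.13 (TNFSF11), -0.13 to 0.18 (TNFRSF11B) and -0.035 to 0.57 (IL11). For siDKK2 against siITM2A they were -0.0098 to 0.15 (ALPL), -0.020 to 0.046 (SPP1), -0.51 to 0.073 (CSF1), -0.72 to 0.10 (IL11) and -0.11 to 0.0076 (TGFB1), and between the lines -0.10 to 0.065 (SP7) and -0.12 to 0.35 (IL11).

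Counts over all genes depended on the fit. Without the line as a replicate block, 0 genes were called in each siRNA comparison (322, 230 and 272 at an unadjusted p under 0.05). With siDKK2 against control the 2 calls became 7 with an intensity trend, 0 on the arrays of the 2 groups alone (1433 at an unadjusted p under 0.05) and 0 to 60 with an array left out, 0 without A673 siDKK2 (1114) or either siITM2A array (1433), 45 without SK-N-MC control and 60 without SK-N-MC siDKK2. A group left with 1 array is assumed to vary like the others. With siITM2A against control they ran from 0 without either siITM2A array (957 for A673, 902 for SK-N-MC) to 4 without SK-N-MC control. Between the siRNAs the 3 calls became 16 with a trend, 6 above the median level, 18 on the 4 arrays alone and 1 to 50 with an array left out, 1 without either siITM2A array, 18 without either control array and 50 without SK-N-MC siDKK2. Signal over background is not given beside the values, so no limit of detection is given.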

Other observations

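For the 3 members with the widest range over the 6 arrays, the genes most like them by Pearson's r were read among genes at or above the median level with a range of at least 1. They are a description over 6 arrays of 2 lines, in which any gene set apart by line correlates highly. PHF20L1, CDKN2A and MAP3K6 were closest to ALPL, with r from 0.9987 to 0.9993. CDKN2A stood at 3.36 with siDKK2, 3.48 with siITM2A and 3.52 with control in A673, and at 7.46, 7.35 and 7.39 in SK-N-MC. DCAF1, CKB and SEC22C were closest to TGFB1 (r from 0.996 to 0.999). HOXB3, TAP2 and TPSD1 were closest to CSF1 (r from 0.98 to 0.991). TAP2, a peptide transporter of antigen presentation, stood at 5.26, 5.54 and 6.53 in A673 and at 4.20, 4.49 and 4.41 in SK-N-MC, so its A673 control value was the highest, as for CSF1.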
